A study of Mus musculus with 12 samples.

Results

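H3K9me3 was measured on X-linked genes of female mouse embryonic fibroblasts (MEF, stage E13.5) with and without SmcHD1, in 1 chromatin immunoprecipitation and sequencing (ChIP-seq) library per genotype. The genes described are those with an H3K9me3 value in both the wild-type and the SmcHD1-deficient MEF library, 739 of the 952 X-linked genes listed. No threshold on the level was used to choose them. Genes without a value in both libraries were left out, and whether a missing value depends on the level is not known. The WT cells were Smchd1 +/+ Xist deltaA/+ and the deficient cells, called MD1 here, were Smchd1 MD1/MD1 Xist deltaA/+. The strain is a cross of C57BL6/J with the F1 of JF1 x C57BL6/J, and the controls carry the Xist deletion as well. The 12 samples of the study are 8 ChIP libraries (H3K9me3 and H3K27me3) and 4 inputs, each a group of 1 library, from MEF and from epiblast stem cells (EpiSCs, stage E6.5). The sources used here do not state how many fetuses or cultures went into a library, or whether the 2 genotypes came from separate litters. The fibroblast label was not checked against cell type markers, since no expression was measured, and Smchd1 itself is autosomal and was not analysed here.

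SmcHD1 is a non-canonical protein of the SMC family that gathers on the inactive X of female mammals and is needed to keep many of its genes silent. H3K9me3, trimethylation of lysine 9 of histone H3, marks heterochromatin and is read by HP1 proteins, while H3K27me3 is laid down by the Polycomb complex PRC2 and covers the inactive X in the wake of Xist RNA. The deltaA form of Xist cannot silence the X it lies on, and females that carry it inactivate their other X. The comparison asks how H3K9me3 on the X depends on SmcHD1 once cells have differentiated.

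Values are the log2 enrichment over input that the authors deposited, 1 per gene and library, where 0 is the level of the input and 1 is 2-fold over it. Each library carries an unknown scale constant, and the sources used here do not say whether the values are limited to 1 allele. The values could be written as ratios of whole numbers, and the smallest such pairs summed to 122980 for the WT ChIP and 98736 for the MD1 ChIP, over inputs of 237146 and 327173. The median pair per gene held 53 ChIP counts in WT and 29 in MD1, and 59 genes of the MD1 library rested on a ChIP pair of 1, against 8 of the WT library. The pairs are the smallest possible, so a small pair need not mean few reads. The gene A230072C01Rik, for example, had an input pair of 33 in WT and 337 in MD1. These pairs gave each change a 95% counting interval, printed in parentheses after it, which covers counting error only. Where the real counts are multiples of a pair, the interval is wider than their counting error. With 1 library a side, no difference below has a replicate check, and fewer cells with the mark cannot be told apart from less of it per cell.

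H3K9me3 was lower in MD1 than in WT fibroblasts at most X-linked genes, and the size of the decrease differed widely from gene to gene. In WT the middle 50% of genes lay between −0.59 and 0.72 with a median of −0.07, and 351 of the 739 (47.5%) were above input. In MD1 the middle 50% lay between −1.97 and −0.67 with a median of −1.26, and 83 (11.2%) were above input. The change, MD1 minus WT, had a median of −1.02 and ran from −7.42 to 2.73. It was negative in 679 genes (91.9%). At least 2-fold lower were 379 genes (51.3%), at least 4-fold lower 187 (25.3%) and at least 8-fold lower 97 (13.1%), while 5 (0.677%) were at least 2-fold higher. The threshold cut through a dense part of the distribution: Pcdh11x, Brcc3 and Wbp5 lay just inside it, and Ssxb3, 4933400A11Rik and Rps6ka3 just outside. The counting interval lay wholly under 0 in 481 genes (65.1%) and wholly over 0 in 3 (0.406%).

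**Figure D1:**
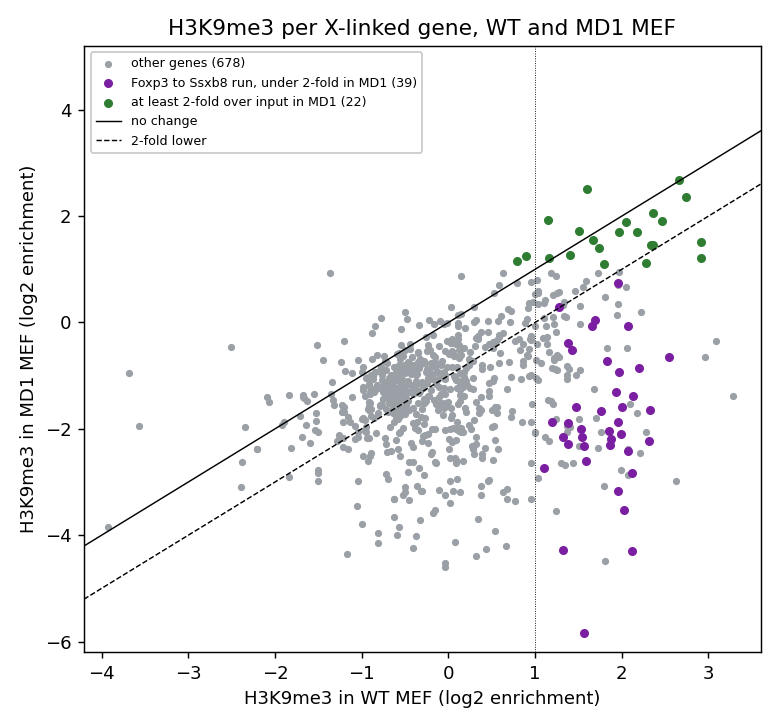
H3K9me3 log2 enrichment in WT MEF (x axis) and MD1 MEF (y axis), 1 point per gene for 739 X-linked genes. Purple points are genes of the Foxp3 to Ssxb8 run that were under 2-fold in MD1, green points the 22 genes at least 2-fold over input in MD1. The solid line marks no change, the dashed line a 2-fold decrease and the dotted line 2-fold over input in WT. Most points lie under the solid line, and most purple points lie well under the dashed one.

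The common shift cannot be told apart from the scale of the libraries. When each library was centred on the 590 genes under 2-fold in WT MEF, 0.99 was added to every change. Centring on the 255 genes under 2-fold in WT EpiSCs, a choice made without the MEF libraries, added 0.82, and centring on 8 genes known to escape X inactivation added 0.19. Lower calls numbered 187 (25.3%), 212 (28.7%) and 331 (44.8%) under these scalings, and higher calls 55 (7.44%), 37 (5.01%) and 8 (1.08%). The share of lower calls among all 2-fold calls was 98.7% as deposited and 77.3%, 85.1% and 97.6% after the 3 scalings. Because at most 0.99 was added, a decrease larger than 2-fold must keep its sign under each of them, whereas changes closer to 0 did not all do so. That follows from the arithmetic and does not show which scaling is right.

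Genes with H3K9me3 at least 2-fold over input in WT, called rich here, held the largest decreases. There were 149 of them, whose median went from 1.52 in WT to −0.71 in MD1. A decrease of at least 2-fold was met by 115 (77.2%), against 51.3% of all genes. Because the WT value both chose these genes and entered the change, that contrast is a description only. The EpiSC libraries gave a grouping that did not use the MEF values. Of 454 genes rich in WT EpiSCs, 276 (60.8%) were at least 2-fold lower in MD1 MEF (median change −1.24). Of the 255 not rich in WT EpiSCs, 87 (34.1%) were, with a median change of −0.69. By quartile of the WT EpiSC value the median MEF change was −0.66, −0.87, −1.18 and −1.65, from the lowest to the highest quartile. The order of the 4 medians does not depend on the scaling, since a scaling adds the same amount to each.

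Along the chromosome, the decrease was largest near the start of the X. Of the 68 genes in the first 10 Mb, 58 (85.3%) were at least 2-fold lower, with a median of 1.53 in WT and −1.48 in MD1. From 20 to 30 Mb, 22 of 25 genes were lower, with medians of 1.30 and −0.99, and from 30 to 40 Mb 40 of 47 were, with medians of 0.08 and −1.64. The interval from 30 to 40 Mb, which holds the Rhox homeobox cluster, thus had few rich genes in WT (6 of 47) and yet a high share of decreases. From 120 to 130 Mb, in contrast, medians were 1.07 (WT) and 0.51 (MD1), and 0 of 6 genes were 2-fold lower. From 130 Mb onward, the median change stayed between −0.95 and −0.66 in each 10 Mb interval.

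**Figure D2:**
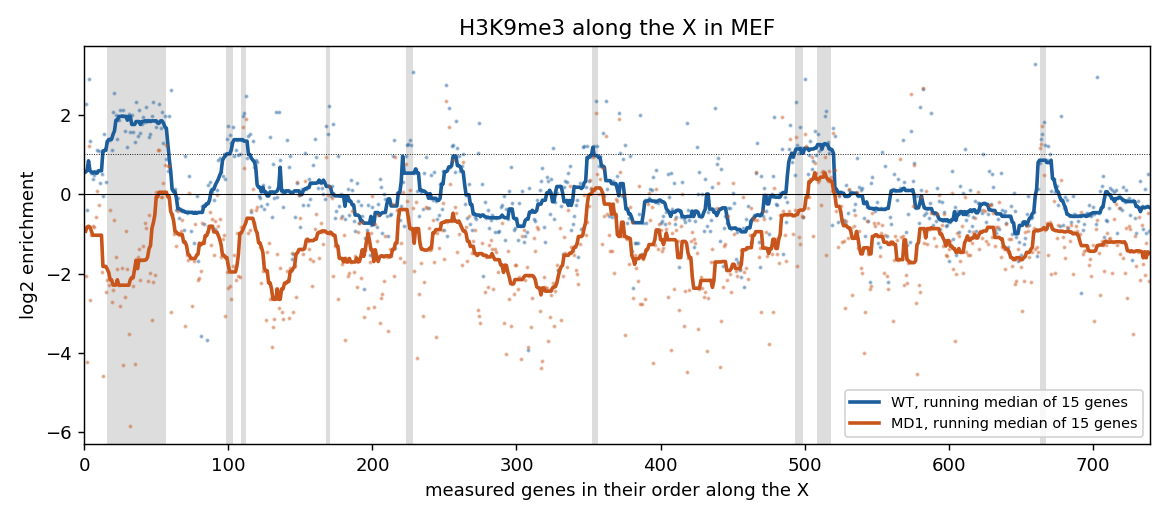
H3K9me3 log2 enrichment of 739 genes in their order along the X, in WT (blue) and MD1 (orange) MEF. Points are genes, lines are running medians of 15 genes, and grey bands mark the 9 runs of at least 3 consecutive measured genes that were rich in WT. The WT line stands near 2 in the first wide band, where the MD1 line drops to about −2 and then climbs towards the end of the band.

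Many rich genes, but not all, were consecutive among the measured genes. There were 9 runs of at least 3 consecutive measured rich genes, which together held 81 of the 149. A run can span genes without a value and a long distance, as from 109714135 to 123598518 for Zfp711 to Gm382 (10 genes). The longest by gene number held 41 genes from Foxp3 to Ssxb8 (mm9, chromosome X, 7156802 to 8267970). Of these, 39 passed the 2-fold threshold downwards. Without these 41 genes the median change of all others was −0.95, and 340 of 698 were 2-fold lower.

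The run had 2 stretches that behaved differently in MD1, split here with the values in view. The first 35 genes, Foxp3 to Slc38a5, include widely expressed genes such as Otud5 (a deubiquitinase), Pqbp1 (a splicing protein), Timm17b (a subunit of the mitochondrial import channel) and Hdac6 (a tubulin deacetylase). The same stretch holds blood and immune genes such as Foxp3, Gata1 and Was, with changes of −3.48, −3.50 and −3.24. From a WT median of 1.85 the 35 genes stood at −2.04 in MD1, a median change of −3.69 or 12.9-fold. All 35 were at least 2-fold lower. The last 6 genes are 5 members of the Ssx family (cancer-testis genes, active in the testis) and Gm14459. Their median was 1.87 in WT, close to that of the first 35, but 0.51 in MD1, and 4 of the 6 were 2-fold lower. WT values of the 2 stretches overlapped, from 1.10 to 2.54 in the first and from 1.28 to 2.28 in the last 6. MD1 values ran from −5.85 to 0.05 in the first and from −0.07 to 1.11 in the last 6, and overlapped only at Slc38a5 (0.05), Gm14459 (−0.07) and Ssxb6 (−0.07). After centring on genes not rich in WT EpiSCs, 33 of the 35 and 1 of the 6 were 2-fold lower. The Ssx genes are near-identical copies, so reads could be split among them by the authors' counting, and their single values are uncertain.

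Tfe3, a basic helix-loop-helix transcription factor of lysosome and metabolic genes (X, 7339787 to 7352328), had 2.12 in WT and −4.30 in MD1. That is a change of −6.42 (−8.32 to −4.51), from 3 ChIP counts in the MD1 pair. Slc35a2, the Golgi transporter of UDP-galactose (7461370 to 7471618), had 1.57 and −5.85, a change of −7.42 (−10.32 to −4.51) on a pair of 1. Genes with more counts gave narrower intervals at smaller decreases. Gripap1, an endosomal protein gene, changed by −4.19 (−4.83 to −3.55), from 1.59 to −2.60, with 26 ChIP counts in MD1. Porcn, the acyltransferase that lipidates Wnt ligands, had 2.32 and −2.22, a change of −4.54 (−5.57 to −3.50). Suv39h1, which encodes an H3K9 methyltransferase, had 1.76 and −1.66 (change −3.42, −4.27 to −2.57). Foxp3, the regulatory T cell factor at the start of the run, had 1.32 and −2.16 (change −3.48, −4.18 to −2.78). In the last 6, Ssxb10 kept 1.10 in MD1 from 1.79 in WT, a change of −0.69 (−1.22 to −0.16) on a pair of 127, and Ssxb8 at the end of the run had 1.96 and 0.74 (change −1.22, −2.04 to −0.39).

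**Figure D3:**
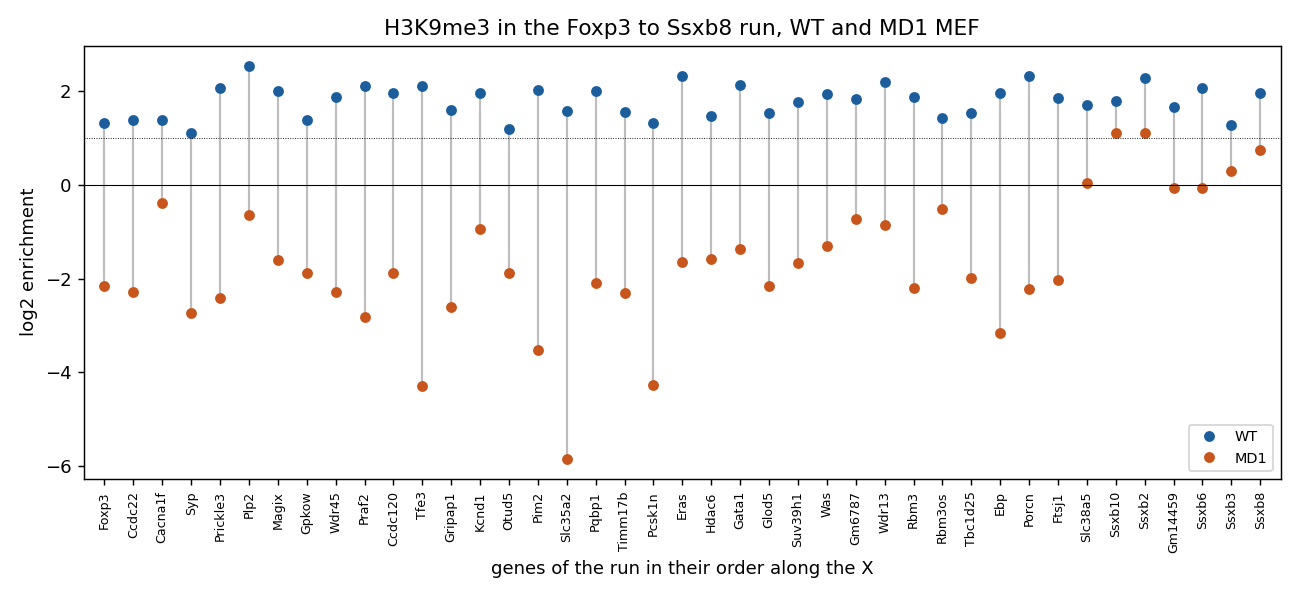
H3K9me3 log2 enrichment of the 41 genes of the Foxp3 to Ssxb8 run in their order along the X, WT in blue and MD1 in orange, joined by a line per gene. The WT points stay between 1.10 and 2.54 from end to end, while the MD1 points of the last 6 genes lie between −0.07 and 1.11, above most of the others.

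The promoters of the 2 stretches differed in CpG content. CpG content was not used to place the split, but the MD1 values were. The last 6 genes are mostly copies of 1 family, so their promoters cannot be counted as independent. In the first stretch 29 genes had a RefSeq promoter with a median of 15 CpGs in 300 bases, and in the last 6 genes 5 had one, with a median of 1. The sequences printed here, from RefSeq (GRCm38.p6), run 5′ to 3′ from 250 bases before to 50 after the first listed start, with each CpG in capitals. Tfe3, Slc35a2 and the kinase gene Pim2 are examples from the first stretch, and Ssxb2 and Ssxb8 from the last. The first stretch also holds promoters with few CpGs, although every gene in it was at least 2-fold lower. Rich genes with 0 to 4 CpGs number 35 with the run and 26 without it, more of a difference than the 5 promoters of the last genes can make up.
Tfe3 (chrX:7762411-7762710, plus strand): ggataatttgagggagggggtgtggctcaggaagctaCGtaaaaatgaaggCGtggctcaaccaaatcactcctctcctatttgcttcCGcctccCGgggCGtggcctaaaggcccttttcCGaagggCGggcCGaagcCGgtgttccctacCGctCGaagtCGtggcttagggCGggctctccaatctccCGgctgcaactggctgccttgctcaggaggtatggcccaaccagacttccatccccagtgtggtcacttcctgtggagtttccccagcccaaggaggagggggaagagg
Slc35a2 (chrX:7883994-7884293, plus strand): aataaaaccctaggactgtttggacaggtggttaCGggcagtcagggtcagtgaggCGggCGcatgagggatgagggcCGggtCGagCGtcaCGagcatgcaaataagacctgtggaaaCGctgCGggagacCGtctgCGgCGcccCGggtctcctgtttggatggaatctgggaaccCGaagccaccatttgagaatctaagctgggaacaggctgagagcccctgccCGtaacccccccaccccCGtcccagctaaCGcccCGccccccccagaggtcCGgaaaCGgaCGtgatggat
Pim2 (chrX:7878056-7878355, plus strand): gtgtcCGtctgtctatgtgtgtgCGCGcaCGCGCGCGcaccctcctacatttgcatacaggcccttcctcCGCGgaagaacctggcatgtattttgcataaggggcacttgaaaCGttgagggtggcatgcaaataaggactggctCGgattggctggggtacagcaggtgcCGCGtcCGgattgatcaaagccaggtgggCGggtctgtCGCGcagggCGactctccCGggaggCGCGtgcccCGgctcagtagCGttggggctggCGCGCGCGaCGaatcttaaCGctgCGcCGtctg
Ssxb2 (chrX:8461677-8461976, minus strand): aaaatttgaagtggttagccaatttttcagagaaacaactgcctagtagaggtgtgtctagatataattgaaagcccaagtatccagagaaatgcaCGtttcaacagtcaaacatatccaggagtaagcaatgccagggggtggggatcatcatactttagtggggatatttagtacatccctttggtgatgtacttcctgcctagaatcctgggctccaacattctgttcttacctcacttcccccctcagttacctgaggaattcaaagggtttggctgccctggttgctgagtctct
Ssxb8 (chrX:8690795-8691094, minus strand): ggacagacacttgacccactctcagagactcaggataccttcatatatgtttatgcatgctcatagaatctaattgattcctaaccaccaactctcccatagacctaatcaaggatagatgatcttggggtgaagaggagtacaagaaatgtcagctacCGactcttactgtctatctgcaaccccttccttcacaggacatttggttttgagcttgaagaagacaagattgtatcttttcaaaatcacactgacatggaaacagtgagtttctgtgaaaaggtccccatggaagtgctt
Tfe3 has 14 CpGs, Slc35a2 21 and Pim2 31, against 1 each in Ssxb2 and Ssxb8. Pim2 had 2.02 in WT and −3.53 in MD1 on a pair of 1, and Ssxb2 had 2.28 and 1.11 on a pair of 26.

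A RefSeq promoter was found for 621 of the 739 genes (736 matched a RefSeq gene). Over these, by CpG quartile from fewest to most, the median change was −0.72, −0.95, −1.47 and −1.20, and the MD1 median −0.74, −1.17, −1.68 and −1.54. The quartile with the most CpGs thus lay between the second and the third. Promoters of these genes held 0 to 57 CpGs, with a median of 11, and over all 1046 X-linked RefSeq promoters the median was 7, with 92.6% holding at least 1 CpG. Among rich genes the WT medians hardly differed by CpG quartile (1.58, 1.38, 1.44 and 1.57), while the MD1 medians were 0.38, −0.48, −1.89 and −2.0 from the fewest to the most CpGs. The median changes were −1.17 with 0 to 4 CpGs, −1.90 with 5 to 11, −3.61 with 12 to 20 and −3.52 with 21 to 57. The share 2-fold lower was 57.1% of 35 genes, 80.5% of 41, 88.9% of 27 and 100% of 15. Without the Foxp3 to Ssxb8 run the median changes by CpG quartile were −0.92, −1.71, −3.40 and −3.34, over 26, 33, 17 and 8 genes.

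Among genes that were not rich the differences were smaller, with median changes of −0.61, −0.83, −1.22 and −1.12 by CpG quartile. Across all 621 genes, Spearman's rho between CpG number and change was −0.25, between CpG number and the MD1 value −0.39, and between CpG number and the WT value −0.12. These are across genes that share both libraries and lie beside each other, so they describe the 2 libraries and carry no p-value.

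**Figure D4:**
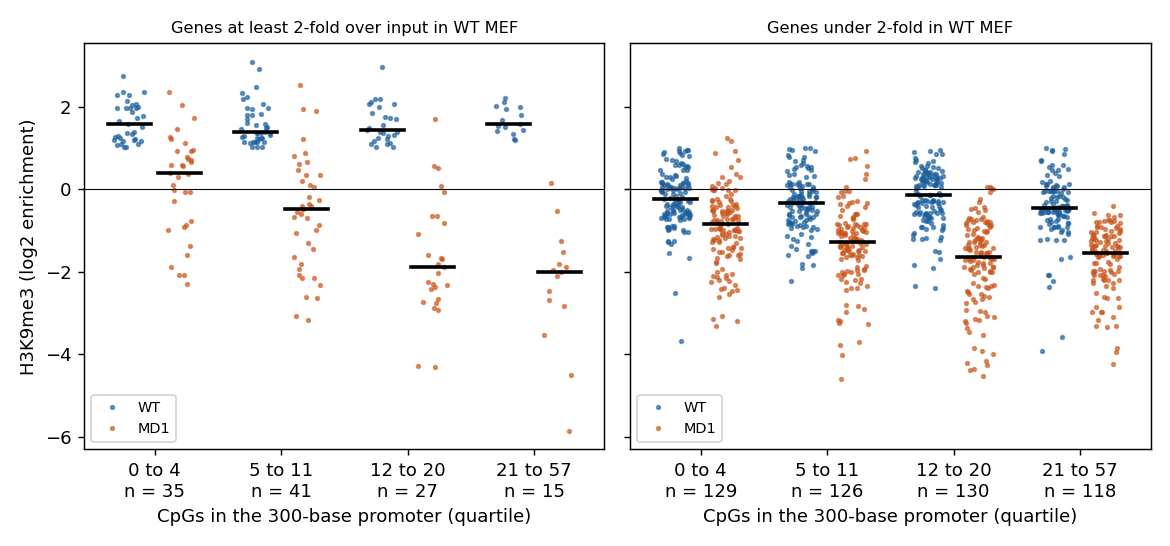
H3K9me3 log2 enrichment in WT (blue) and MD1 (orange) MEF by quartile of the number of CpGs in the 300-base promoter, for genes at least 2-fold over input in WT (left) and for the others (right). Points are genes, black bars are medians, and n is the number of genes. On the left the WT medians lie between 1.38 and 1.58, and the MD1 medians step down from 0.38 to −2.0.

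Gene length also moved with the change. By length quartile the median change was −1.57, −1.68, −0.89 and −0.66, from genes of at most 6618 bases to those of at least 51189. At least 2-fold lower were 64.9%, 67.6%, 43.5% and 29.2% of them. Long genes carry many counts, so their small changes were measured narrowly. Dmd, which encodes dystrophin and is the longest gene here at 2256181 bases, had −0.04 in WT and −0.54 in MD1, a change of −0.50 (−0.56 to −0.45). Il1rapl2, a synaptic adhesion protein gene, had 0.11 and −0.06 (change −0.17, −0.24 to −0.10). Both intervals exclude a 2-fold decrease on the deposited scale. The quartile with the fewest CpGs had the smallest median change on either side of the median length. By CpG quartile the medians were −0.95, −1.50, −2.72 and −2.21 in shorter genes and −0.60, −0.76, −0.94 and −0.94 in longer ones. The part of length in the differences between gene groups was not tested.

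The other 8 runs of rich genes differed in how much of the mark was left in MD1. Rbm10 to Araf (5 genes, X, 20194629 to 20437647) had an MD1 median of −2.33, with WT values from 1.30 to 1.73, and all 5 genes were 2-fold lower. Uba1, the main ubiquitin-activating enzyme, had the highest WT value in it, 1.73, and −2.36 in MD1, a change of −4.09 (−4.73 to −3.44). Rbm10, a splicing regulator, had 1.40 and −1.96, and the kinase gene Araf 1.70 and −1.80. The next run along the chromosome, A230072C01Rik to Zfp300 (4 genes, 20538802 to 20666355), kept a median of 1.19 in MD1 from 2.01 in WT. Zfp182 and Zfp300, zinc finger genes in it, had 1.97 and 2.47 in WT and 1.70 and 1.90 in MD1. Zfp182 held 697 ChIP counts in MD1 and changed by −0.27 (−0.54 to −0.0040), and A230072C01Rik, at the other end, had 1.37 and −0.82.

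Zfp711 to Gm382 (10 genes, 109714135 to 123598518) had 1.26 in WT and 0.40 in MD1, with 5 genes 2-fold lower. Its lowest MD1 value was not at its ends: Zfp711 had 0.32, Gm382 0.43, and Pabpc5, a poly(A)-binding protein gene and the highest of the run in WT at 2.10, had −1.53. Gm732 to Sh3bgrl (5 genes, 105141074 to 106357806) began with Gm732 at 2.33 in WT and 1.45 in MD1 and ended with Sh3bgrl at 1.16 and −0.55. The 3 genes between them include the chromatin regulator gene Brwd3. In 3830403N18Rik to 6330419J24Rik (5 genes) all 5 were lower, with medians of 1.26 and −0.35. The other 3 runs were 4930480E11Rik to Gm8787, Samt4 to Magea5 and Gm362 to Dcaf12l1. They had WT medians of 1.21, 1.45 and 1.73 and MD1 medians of 0.73, 0.87 and 0.20. Among them 5 of the 11 genes were 2-fold lower.

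The 15 genes with counting intervals farthest under 0 included Tfe3, Slc35a2, Ebp, Gripap1, Prickle3, Porcn, Uba1, Pdzd11, Rbm3, Maged1, Ftsj1, Timm17b, Las1l and Usp11. The 15 changed by −7.42 to −3.87. The Foxp3 to Ssxb8 run holds 9 of them, against 41 of all 739 genes, and 14 were rich in WT, against 20.2% of all genes. The WT value entered the ranking and also defines rich genes and the run, so these counts are a description only. The gene that was not rich was Las1l, a ribosome biogenesis gene, with 0.43 in WT and −4.26 in MD1. Ebp, a sterol isomerase of cholesterol synthesis, had 1.96 and −3.17 on a pair of 5, a change of −5.13 (−6.50 to −3.75). Maged1, a widely expressed MAGE gene, had 1.99 and −2.77, and the cold-inducible RNA-binding protein gene Rbm3 had 1.87 and −2.20. Rbm3 overlaps Rbm3os, and reads in the overlap could count for both.

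At the other end, 3 genes had an interval wholly over 0. Those described here are Zfx and Lpar4. Zfx, a zinc finger transcription factor (91319970 to 91368746), had −1.44 and −0.71, a change of 0.74 (0.28 to 1.19). Lpar4, a lysophosphatidic acid receptor, had −1.52 and −0.42, a change of 1.10 (0.13 to 2.07). Both were under input in both libraries. Lpar4 is also among the 5 genes at least 2-fold higher. The other 4, Ddx3x, Gpr82, Cxx1a and Gja6, had intervals that included 0, on WT pairs of 4, 1, 2 and 1. Of the 15 genes with the highest interval bounds, others were Kdm6a, Kir3dl2, Ddx3x, Iqsec2, Usp26, Enox2, Ftx, Il1rapl2, Tsc22d3, Ppef1 and Pbdc1, with changes between −0.17 and 1.62. Enox2 had −0.73 in both libraries (change 0.00, −0.17 to 0.17).

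Of the 8 listed genes known to escape X inactivation, all but Car5b stood under input already in WT. Median levels were −1.10 (WT) and −1.29 (MD1). The median change of the 8 was −0.24, against −1.02 over all genes, and it was positive after centring on genes not rich in WT MEF or in WT EpiSCs (0.75 and 0.58). Of 8 members, 1 was 2-fold lower (Car5b, 0.21 and −1.18) and 1 higher (Ddx3x, an RNA helicase, −3.57 and −1.95). The H3K27 demethylase gene Kdm6a had −0.88 and −0.68, a change of 0.20 (−0.06 to 0.46), and the H3K4 demethylase gene Kdm5c −1.22 and −1.65. The translation factor gene Eif2s3x had −2.38 and −2.62, Pbdc1 −1.84 and −1.36, and Mid1, which spans the boundary of the pseudoautosomal region, −0.98 and −1.22. Utp14a, a gene of ribosome assembly, lay close to the threshold at −0.05 and −1.04, a change of −0.98 (−1.46 to −0.50).

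Genes subject to X inactivation stood at a median of −0.30 in WT and −2.06 in MD1, and 5 of 8 were 2-fold lower (4 and 5 after the same 2 scalings). None of the 8 was rich in WT. Pgk1, a glycolytic kinase, had 0.47 and −2.96, a change of −3.43 (−4.50 to −2.36). The pentose phosphate enzyme gene G6pdx had −0.31 and −3.17, the purine salvage gene Hprt 0.00 and −2.20, the lysosomal enzyme gene Gla 0.15 and −1.99, and the ubiquitin ligase gene Rlim −0.30 and −2.14. The 3 under the threshold included the long genes Huwe1 (−0.82) and Atrx (−0.52), and all 3 had an interval under 0.

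Counts of genes 2-fold lower in the lists that follow stand against 51.3% of all genes as deposited, and against 25.3% and 28.7% after centring on genes not rich in WT MEF and in WT EpiSCs, called the 2 scalings. Of the ribosomal protein and translation factor genes, 6 of 7 were 2-fold lower (4 and 5 after the 2 scalings) and 5 had an interval under 0, at medians of 0.10 (WT) and −1.87 (MD1). Rpl10, Rps4x and Rpl39 are short, and each rested on 1 ChIP count in the MD1 pair. The translational repressor gene Fmr1 gave a firmer value, with 0.72 and −1.78 (change −2.50, −3.18 to −1.81) on a pair of 41. Eif2s3x was the member that did not pass.

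Of 20 RNA binding and processing genes, 14 were lower (10 and 12 after the 2 scalings) and 1, Ddx3x, was higher, with medians of 0.15 and −1.86. The splicing and paraspeckle protein gene Nono had −0.81 and −3.95, and Upf3b, of nonsense-mediated decay, 0.02 and −2.97. Of 20 mitochondrial protein genes, 15 were lower (6 and 9 after the 2 scalings), and 12 had an interval under 0. Of 18 lysosome and vesicle traffic genes, 13 were lower (8 and 9 after the 2 scalings), with medians of 0.00 and −1.69. The proton pump subunit gene Atp6ap1 had 0.42 and −2.36. Of 14 solute carriers 11 were lower (78.6%), and 5 and 7 after the 2 scalings. Of 27 metabolic enzymes 18 were lower (66.7%), and 9 and 11 after the 2 scalings.

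Of 20 transcription factor and Mediator genes, 15 were lower (11 after either scaling), with medians of 0.20 and −2.06. They included Nkrf (−0.11 and −3.15) and the placental homeobox gene Esx1 (2.21 and −2.46). Of 24 chromatin regulators, 15 were lower (62.5%, against 51.3% of all genes), and 7 after either scaling. Their median change of −1.12 was close to that of all genes. Brwd3, a bromodomain protein gene, changed by −3.07 (−3.44 to −2.69), from 1.25 to −1.82, with 135 ChIP counts in MD1. The cohesin genes Smc1a and Stag2 changed by −1.12 each, and the deacetylase gene Hdac8, a long gene, by −0.46 (−0.68 to −0.23). In the ubiquitin pathway 14 of 24 were lower, a share of 58.3% near the 51.3% of all genes, and 10 and 11 after the 2 scalings. Ubqln2 had the highest WT value of all genes, 3.28, and −1.39 in MD1, on an MD1 pair of 2, whereas Usp26 had −0.34 and −0.05.

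Of 24 extracellular matrix, adhesion and cytoskeleton genes, 10 were lower (41.7%), with a median change of −0.55 that became 0.43 and 0.27 after the 2 scalings. Members varied widely. Biglycan (Bgn) had −0.37 and −4.02, filamin A (Flna) 0.10 and −2.94, and ephrin B1 (Efnb1) 0.54 and −3.92. Nearer to 0 in their change, Gpc3 had −0.82 and −1.17, Col4a5 −0.95 and −1.05, and Diap2 0.12 and −0.43. Of 29 neural receptor, adhesion and synaptic genes, 9 were lower (31.0%), with a median change of −0.74 that became 0.25 and 0.08 after the 2 scalings. Their median length was 80970 bases. Synapsin (Syn1), next to the Rbm10 to Araf run, had 0.96 and −1.53, and the serotonin receptor gene Htr2c 0.58 and −0.28. Of 21 blood and immune genes, 14 were lower (66.7%), and 7 after either scaling. They included the erythroid factor gene Gata1 (2.13 and −1.37), Was (1.94 and −1.30) and the complement gene Cfp (1.37 and −0.99).

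Gene families clustered on the X were counted in the same way. Of 7 Ssx genes 3 were lower, with medians of 1.79 and 0.74, and a median change of −0.99 that was −0.0039 and −0.17 after the 2 scalings. Ssx9 and Ssxb5 had 0.90 and 0.59 in WT and 1.25 and 0.71 in MD1. Of 10 measured Rhox genes out of 30 listed, 7 were lower, and 3 after either scaling, from Rhox1 (0.68 and −3.13) to Rhox10 (−0.82 and −0.60). Of 10 MAGE genes 7 were lower (4 and 5 after the 2 scalings), among them Maged1, Maged2 (0.54 and −1.60), Magea5 (1.25 and −0.90) and Magea8 (1.81 and 0.48), while Mageb16 had 0.97 and 0.38. Of 8 Zfp genes 3 were lower, with a median change of −0.71 that became 0.28 and 0.11 after the 2 scalings. Of 7 Bex and Tceal genes 6 were lower (4 after either scaling), but 2 had an interval under 0. Of 10 gag-derived genes 6 were lower (3 and 4 after the 2 scalings) and 1 higher, with 3 intervals under 0. The recovered pairs of these short genes held few counts. Of 12 Xlr and Slx genes listed, 1 (Xlr) was measured in both libraries, with −0.81 and −1.70.

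**Figure D5:**
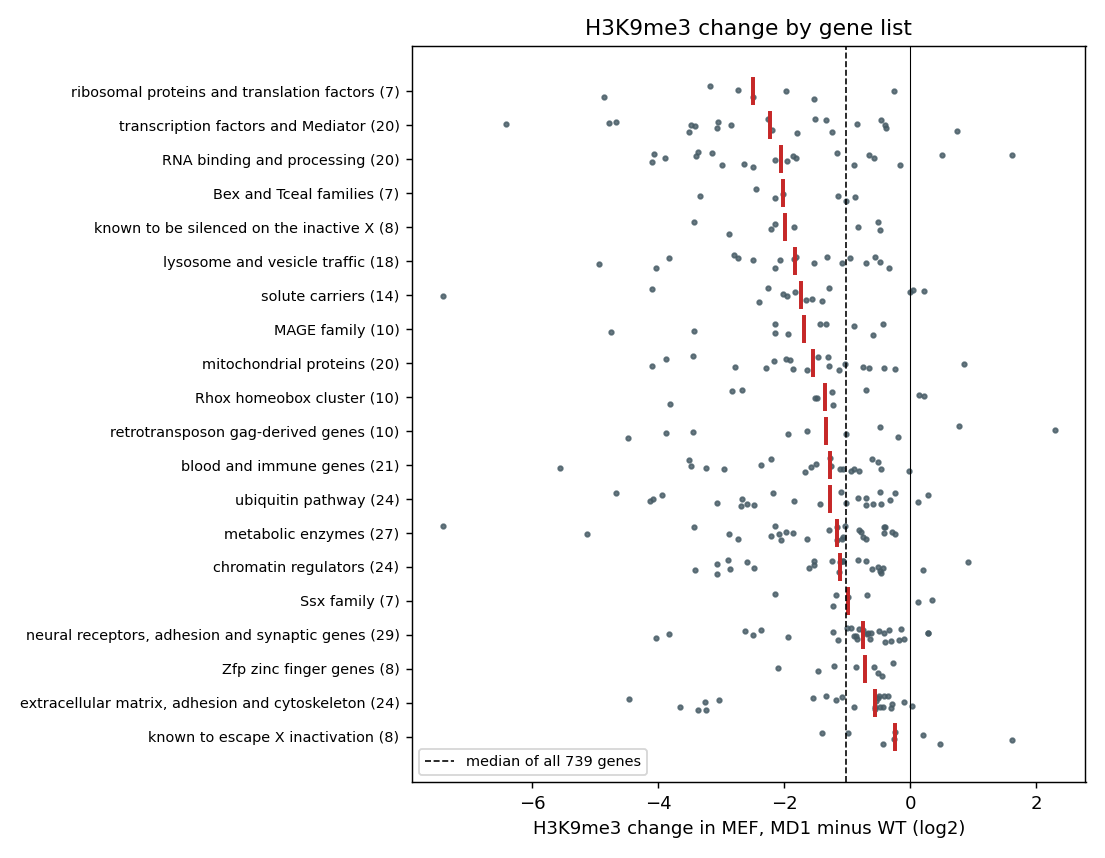
H3K9me3 change in MEF, MD1 minus WT (log2), for the measured members of each gene list with at least 5 of them (number in parentheses). Points are genes, red bars are list medians, the dashed line is the median of all 739 genes at −1.02 and the solid line is no change. List medians run from −2.50 for ribosomal protein and translation factor genes to −0.24 for genes known to escape X inactivation.

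H3K9me3 was at least 2-fold over input at 22 genes in MD1, of which 20 were rich in WT. The 20 became 52 and 46 after the 2 scalings. Of the 20, 8 had input pairs of at least 20 in both libraries. Most of the 22 thus had small recovered pairs, which may understate their reads. Median levels of the 22 were 2.01 (WT) and 1.53 (MD1), their median length 3132 bases, and 14 of them had a RefSeq promoter with a median of 2.5 CpGs. The highest MD1 values on input pairs of at least 20 were at Cdr1 (2.74 and 2.36), Zfp300, Zfp182, 4930412D23Rik (1.67 and 1.55), Gm732, Ssx9, Cylc1 (1.16 and 1.21), Ssxb2, Ssxb10 and Cpxcr1 (1.96 and 0.95). Cylc1 encodes a protein of the sperm head. Higher values on thinner pairs, such as Tex13a (2.66 and 2.67) and H2bfm (2.52 in MD1), each rested on an MD1 input pair of 3.

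Fibroblasts and EpiSCs could be compared at 698 genes, and the 2 changes share no library. WT medians differed, −0.10 in MEF and 2.03 in EpiSCs, while MD1 medians were −1.27 and −1.28. Each median includes its own library constant. Of 354 genes 2-fold lower in MEF, 325 (91.8%) were also lower in EpiSCs, where 82.9% of the 708 genes with both EpiSC values were lower and 1.13% higher. These 325 made up 56.1% of the 579 lower in EpiSCs. Pearson's r between the 2 changes was 0.44 and Spearman's rho 0.47 across these genes, given as a description. Genes at least 2-fold over input in MD1 numbered 18 in MEF and 32 in EpiSCs, and 13 were common to both. In the Foxp3 to Ssxb8 run the EpiSC medians, each over the genes with a value in that library, were 3.73 in WT and −1.39 in MD1. Of the last 6 genes 3 had a value in both EpiSC libraries: Ssxb10 had 3.90 and −0.0051, Ssxb2 3.36 and 1.17, and Ssxb8 3.94 and 1.84.

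H3K27me3 values of the same fibroblasts are given beside these results. The 2 marks share their inputs, so no relation between their changes was computed. Over all 739 genes H3K27me3 medians were 2.10 (WT) and 2.39 (MD1), with 24.0% of genes 2-fold lower and 22.3% higher. In the first 35 genes of the Foxp3 to Ssxb8 run it was 0.81 and 0.31, and in the last 6 genes 0.02 and 1.84. Single genes of the run went either way: Tfe3 had 1.11 and −2.74, Slc35a2 0.55 and −3.71 and Pqbp1 0.91 and −3.87, whereas Porcn had 0.04 and 1.66, Gata1 0.92 and 2.48 and Pcsk1n 1.44 and 3.04. In Rbm10 to Araf the medians were 0.73 and −2.50. Zfx, with higher H3K9me3 in MD1, had H3K27me3 of 2.96 and −2.64.

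Some genes had a value in 1 genotype only, and why is not known from the files. A WT value without an MD1 value was present at 8 genes, among them Ssxb9 (2.10), Sox3 (1.54), Magea2 (1.18) and Magea3 (0.96). An MD1 value without a WT value was present at 15, of which Armcx5 had the lowest (−3.92) and Gm16390 the highest (0.27). Neither library had a value at 190 genes. Genes without both values had a median length of 1960 bases, against 18663 for the 739, so short genes are under-represented.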

How the data were processed

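NEBNext Ultra II libraries were sequenced, per the labels' protocols. The submitters' processing notes list cutadapt, SAMtools, BWA and the build mm9. The sources used here give no versions, counting rule, filters, allele or pseudocount. Per-gene values were deposited by the authors as log2 enrichment and were used unchanged. Deposited starts were read as counting from 0 and are printed from 1.

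Changes were MD1 minus WT, with a 2-fold threshold. For each library 1 constant was sought for which every value is a ratio of whole numbers, giving a ChIP and an input count per gene (denominator at most 30000, relative tolerance 1e-12). All values matched. H3K9me3 and H3K27me3 of the same cells were given a common input. The pairs are the smallest possible, so real counts may be multiples of them. Intervals use the normal approximation on the log scale and are rough where a pair is small. The procedure was tested on simulated data. Python 3.11.15, pandas 2.3.3 and numpy 2.4.6 were used.

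Named genes were the 15 with the lowest upper and the 15 with the highest lower interval bound, list members, the first, last and highest WT gene of each run, and the 10 highest MD1 values with input pairs of at least 20. Slc38a5 as the split of the longest run, genes at thresholds, and single genes outside these groups were chosen after their values were seen. Some genes that meet these rules are not reported here. The members, lists and rules were chosen with earlier results of these data known. Alternatives were 3 scalings, filters on low values and on input pairs, a pseudocount of 0.1, 1.5-fold and 3-fold thresholds, and genes with all values. With 1 library per group there was no test and no paired analysis.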

Additional observations from a re-analysis of the deposited data

Results flagged for a closer look

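Zfx had opposite directions in the 2 cell types on the deposited scale, each beyond counting error. The H3K9me3 change was 0.74 in MEF and −1.49 in EpiSCs (−0.40 in WT and −1.90 in MD1). Zfx was under input in all 4 libraries. The median EpiSC change was −2.99 over all genes and −1.09 over genes not rich in WT EpiSCs. The direction at Zfx in EpiSCs therefore depends on the unknown scale of those libraries. With 1 library per group the difference between cell types was not tested.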

How the results depend on the processing

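Among the 9 summary results, 43 of 75 recomputed values stayed close to those reported (counts within 1.5 times, the median within its binomial interval) and 32 did not. Scaling mattered most. Centring on genes not rich in WT MEF, and then on genes not rich in WT EpiSCs, gave a median change of −0.036 and −0.20, 187 and 212 genes lower, 55 and 37 higher, and 164 and 203 lower beyond counting error. It gave 142 and 158 lower among genes rich in WT EpiSCs, 163 and 184 lower in both cell types, and 52 and 46 still rich in MD1. Centring on escape genes gave a median of −0.84 and 8 genes higher. The WT count of rich genes was not rescaled. Input pairs of at least 20 left a median of −0.93, 89 rich genes, 69 of them lower, 8 still rich and 3 genes higher. Without the lowest 10% of genes 3 were higher. A pseudocount of 0.1 gave a median of −0.87 and 3 higher. A 1.5-fold threshold gave 15 higher and 38 still rich. A 3-fold threshold gave 244 lower, 68 rich, 47 of these lower, 8 still rich, 162 lower among genes rich in WT EpiSCs and 196 lower in both cell types. Counting intervals have no pseudocount or fold threshold, so those 3 settings were not run for them. The value without the Foxp3 to Ssxb8 run was added after the data were seen. Of 313 named and listed genes, 197, 171 and 15 moved beyond their counting interval under the 3 scalings in this order, and 1 with the pseudocount. No paired analysis was possible because each group holds 1 library. Depth limits short genes most. The recovered MD1 ChIP pair was under 5 at 134 genes, and such pairs may understate the reads.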
